A study of Mus musculus with 354 samples.

Results

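The PPAR-alpha target genes described here are 8 mouse genes, Cyp4a10, Cyp4a14, Cyp4a31, Acot1, Acot3, Ehhadh, Vnn1 and Fgf21, of which 6 were measured. A gene was measured through the probe sets annotated to its symbol and to no other. Cyp4a10, Acot1, Acot3, Ehhadh, Vnn1 and Fgf21 had 1 such probe set each and all 6 passed the filter on dim genes, among 14125 genes tested from 42597 probe sets. Cyp4a14 and Cyp4a31 are not analysed here.

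The values are log2 expression values from livers of 354 male mice, 1 array per mouse, in 45 inbred strains of the Collaborative Cross, a recombinant panel bred from several founder strains. The Tolvaptan group held 175 mice given tolvaptan, which blocks vasopressin V2 receptors, and the Control group 179 mice given vehicle. All mice of both groups were about 8 to 10 weeks old at dosing, had about 7 days of acclimation and were fasted for about 18 h, and the livers represent 24 h of treatment. Each strain had 4 animals per treatment, except for 4 cases of 3 animals and 1 case of 2, and the arrays were run in 6 scans. No group was fed, lacked the receptor or received a PPAR-alpha ligand, so the induction of these genes by fasting is not part of the comparison.

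PPAR-alpha is a nuclear receptor that binds fatty acids and, paired with RXR, switches on genes of fatty acid handling in the liver. It is best known for the response of the liver to fasting, when fatty acids from adipose tissue are burned or turned into ketone bodies. Cyp4a10 is a cytochrome P450 that hydroxylates the omega end of fatty acids. Acot1 and Acot3 are thioesterases that split acyl-CoA into free fatty acid and coenzyme A, in the cytosol and in peroxisomes. Ehhadh is the bifunctional enzyme of peroxisomal beta-oxidation, Vnn1 is a pantetheinase that breaks down pantetheine from coenzyme A, and Fgf21 is a hormone released by the fasted liver.

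The DNA around the start sites was searched for motifs, since these genes are classed by the receptor that acts on them. Sites outside the windows below were not searched. RefSeq windows of 250 bases before to 50 bases after the start were matched for 4 of the 8 genes on build GRCm38.p6, and are printed on the strand of the gene with motif matches in capitals. Acot1 lies at chr12:84009252-84009551 (plus strand), Acot3 at chr12:84051894-84052193 (plus strand), Ehhadh at chr16:21787785-21788084 (minus strand) and Fgf21 at chr7:45615441-45615740 (minus strand).
Acot1: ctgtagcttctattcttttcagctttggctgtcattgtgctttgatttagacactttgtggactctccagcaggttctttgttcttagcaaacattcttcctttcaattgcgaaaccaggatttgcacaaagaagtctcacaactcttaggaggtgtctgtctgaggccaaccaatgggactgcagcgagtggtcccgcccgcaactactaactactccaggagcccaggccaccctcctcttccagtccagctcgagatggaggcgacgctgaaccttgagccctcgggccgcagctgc
Acot3: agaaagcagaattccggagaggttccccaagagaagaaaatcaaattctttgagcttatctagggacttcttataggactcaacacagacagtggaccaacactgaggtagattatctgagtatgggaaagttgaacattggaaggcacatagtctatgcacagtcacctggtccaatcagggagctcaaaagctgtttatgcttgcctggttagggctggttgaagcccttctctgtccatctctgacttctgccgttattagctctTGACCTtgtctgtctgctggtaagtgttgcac
Ehhadh: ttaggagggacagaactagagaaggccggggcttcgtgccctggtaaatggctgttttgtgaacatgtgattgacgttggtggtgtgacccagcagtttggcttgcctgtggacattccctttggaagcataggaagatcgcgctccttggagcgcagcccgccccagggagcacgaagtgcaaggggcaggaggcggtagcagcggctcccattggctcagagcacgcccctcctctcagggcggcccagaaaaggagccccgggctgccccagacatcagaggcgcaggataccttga
Fgf21: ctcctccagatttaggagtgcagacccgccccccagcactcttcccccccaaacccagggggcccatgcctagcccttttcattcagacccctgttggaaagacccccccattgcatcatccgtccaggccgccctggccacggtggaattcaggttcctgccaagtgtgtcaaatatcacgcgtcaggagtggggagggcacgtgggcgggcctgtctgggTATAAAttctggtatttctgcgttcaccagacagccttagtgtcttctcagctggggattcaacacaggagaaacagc
Both strands were searched for AGGTCA, the half-site of many nuclear receptors, for AGGTCANAGGTCA, a direct repeat of it with 1 spacer base, and for TATAAA. The half-site was found in the window of Acot3 alone, as TGACCT starting 18 bases after the start site. It occurs in 16.3% of the 32851 windows of this length. The direct repeat, which contains AGGTCA, was in none of the 4 windows and in 0.0396% of all windows. TATAAA was found in the window of Fgf21 alone, 28 bases before its start, and in 13.6% of all windows. In the RefSeq annotation Acot1 and Acot3 lie near each other on chromosome 12, and Cyp4a10 lies between Cyp4a14 and Cyp4a31 on chromosome 4.

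The arrays stood apart in strain identity before any result was read. Over the 500 probe sets that best separate the strains, 34 arrays had a correlation of at most 0.325 with the median profile of the remaining mice bearing the same strain label, while 320 arrays reached 0.649 or more. Of the 34 arrays, called off-strain arrays below, 7 were Tolvaptan and 27 were Control, 22 were in scan 2, and 19 strains held at least 1. The differences in single strains and the ranges over strains are given with and without such arrays where they enter. The tissue label was borne out by 8 of 8 hepatocyte markers above the array median, with mean levels of 12.44 to 13.34 in Tolvaptan livers and 12.34 to 13.28 in Control livers. Above the median were also 6 of 6 Kupffer cell markers, 1 of 4 adipocyte, 1 of 4 kidney tubule and 2 of 3 small intestine markers. Their medians were 5.98, 3.12, 3.05 and 6.20 in Tolvaptan livers against 5.99, 3.09, 3.07 and 6.22 in Control livers. In such tissue samples fewer cells of a type and less RNA per cell cannot be told apart.

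All 6 genes were expressed in these fasted livers, and their levels overlapped almost entirely between Tolvaptan and Control. The first comparison asks whether tolvaptan moved them, averaged over strains with each strain weighted alike. Of the 6 genes, 0 passed an adjusted p of 0.05 in limma and 1, Cyp4a10, had an unadjusted p under 0.05. Over all genes tested limma called 0.496%, with 0.326% higher and 0.17% lower, and 9.56% had an unadjusted p under 0.05. The median averaged difference of the 6 genes was 0.01, against a median of 0.0003 over all genes.

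Cyp4a10, the omega-hydroxylase, was the gene with the lowest p of the 6. Its levels in Tolvaptan livers had a lowest value of 8.22, a median of 12.29 and a highest of 13.00. In Control livers they had a lowest value of 8.05, a median of 12.37 and a highest of 13.13. The groups overlapped over nearly their whole range, and the largest gap lay at the low end, where the 10th percentile was 10.31 in Tolvaptan and 11.26 in Control. Values below 11, a limit chosen after the values were seen, occurred in 27 Tolvaptan livers (15.4%) and 15 Control livers (8.38%). They gathered in some strains, so these livers do not count as independent cases. AU8052 held 4 Tolvaptan and 2 Control livers of them, OR5612 3 and 2, and AU8021 3 Tolvaptan livers. AU8043 and OR5391 held 2 Control livers each. The averaged difference was -0.21 ± 0.07 (SE, 95% interval -0.36 to -0.06), or 0.865-fold, with an unadjusted p of 0.0055 and an adjusted p of 0.239. It was above 0 in 17 of 45 strains. The probe set is of a type that can match several transcripts of a family, so its value may include other Cyp4a transcripts.

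The thioesterases did not pass the test. Acot1 had a lowest, median and highest level of 5.27, 9.35 and 11.39 in Tolvaptan livers, against 5.27, 9.38 and 11.30 in Control livers. Its averaged difference was 0.02 ± 0.10 (SE, adjusted p = 0.977), positive in 26 strains. Acot3 had a lowest, median and highest level of 3.13, 8.10 and 10.75 in Tolvaptan livers, against 3.14, 8.00 and 10.79 in Control livers. The averaged difference of Acot3 was 0.04 ± 0.13 (SE, adjusted p = 0.962), positive in 25 strains. Its probe set can also match related transcripts, and 2 further probe sets annotated to both Acot4 and Acot3, which were left out, correlated with it at r = 0.72 and 0.64 over the 354 arrays. Both genes spanned several log2 units within each treatment, while the groups' medians differed by little.

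Ehhadh had the narrowest spread. Its lowest, median and highest levels were 9.45, 11.38 and 12.52 in Tolvaptan livers, against 9.50, 11.47 and 12.58 in Control livers. The averaged difference was -0.09 ± 0.06 (SE, adjusted p = 0.700), positive in 15 strains. The interval of -0.21 to 0.03 bounds a change of this peroxisomal enzyme more tightly than that of any other of the 6 genes.

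Vnn1 and the hormone gene Fgf21 also missed the threshold. Vnn1 had lowest, median and highest levels of 3.47, 9.60 and 11.28 in Tolvaptan livers, against 2.70, 9.48 and 11.43 in Control livers, and differed by 0.09 ± 0.11 (SE, adjusted p = 0.859). Fgf21 had lowest, median and highest levels of 2.39, 6.39 and 9.84 in Tolvaptan livers, against 1.95, 6.61 and 10.01 in Control livers, and differed by 0.01 ± 0.14 (SE, adjusted p = 0.993). Fgf21 lay above the median of its own array in 173 of 175 Tolvaptan livers and 173 of 179 Control livers. The 95% interval of Fgf21, -0.26 to 0.28, corresponds to 0.834-fold to 1.21-fold.

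**Figure D1:**
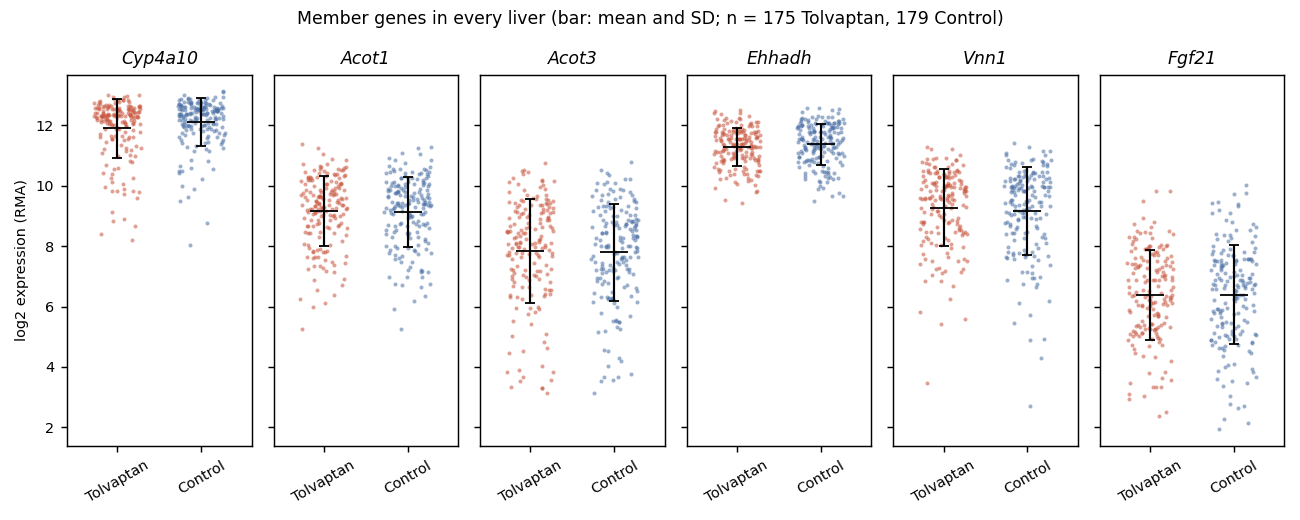
Log2 expression (vertical axis) of the 6 measured genes in every Tolvaptan (left, 175) and Control (right, 179) liver, with 1 point per animal and bars for the mean and SD. The 2 clouds of each gene cover the same range, and Cyp4a10 shows a tail of low values in both groups.

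The scans did not agree on a direction. Within scan 5, where 11 Tolvaptan and 10 Control livers of 4 strains entered the fit, all 6 differences were negative, between -0.32 for Ehhadh and -1.02 for Acot3, and none was called (adjusted p of 0.995 in limma for each, with 532 of 14125 genes at an unadjusted p under 0.05). In scan 4, with 23 Tolvaptan and 22 Control livers of 8 strains, all 6 were positive, between 0.04 for Cyp4a10 and 0.55 for Acot3. Cyp4a10 was -0.25 in scan 1, -0.03 in scan 2 and -0.36 in scan 3. Scan and strain overlap, since every strain has 1 animal of each treatment in scan 1 and the rest mostly in 1 later scan, so scans 2 to 5 hold largely different strains.

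**Figure D2:**
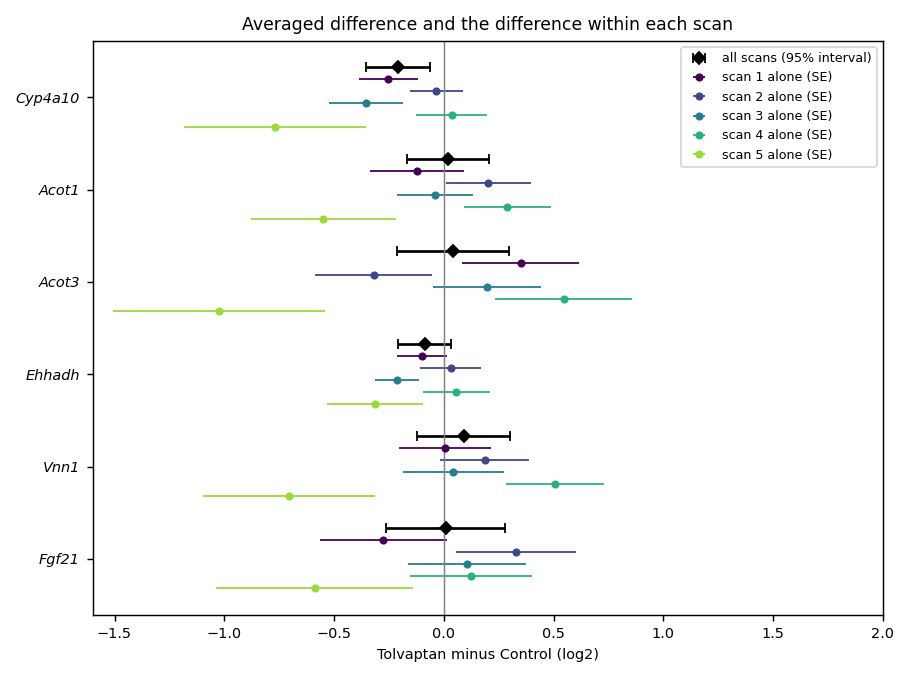
Tolvaptan minus Control in log2 units (horizontal axis) for each gene, averaged over strains with its 95% interval (diamonds) and within each of scans 1 to 5 alone with its SE (circles). The scan 5 circles lie left of 0 for all 6 genes and the scan 4 circles right of 0.

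The second comparison asks whether the strains differed in the response of these genes. Their interaction test in limma called 0 of the 6 genes, with 0 at an unadjusted p under 0.05 and adjusted p-values from 0.811 (Cyp4a10) to 0.969 (Fgf21). It called 0.0212% of all genes, and 6.78% had an unadjusted p under 0.05. The SD of the 45 strain differences was 0.40 for Ehhadh to 0.88 for Fgf21. For these genes it was about the median SE of a single strain's difference, 0.40 for Ehhadh and 0.91 for Fgf21. In the other genes the SD was above that SE. It was 0.57 against 0.49 for Cyp4a10, 0.71 against 0.63 for Acot1, 0.79 against 0.71 for Vnn1 and 0.88 against 0.86 for Acot3. All 6 genes had the same sign in 13 strains, lower under tolvaptan in 7 and higher in 6. The same animals enter all 6 differences of a strain.

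Of the 270 differences of a gene in a single strain, limma called 1, and 24 had an unadjusted p under 0.05. Over all genes and strains it called 0.281%. The share with an unadjusted p under 0.05 was not computed over all genes and strains, so the count of 24 is not read further. The call was Cyp4a10 in AU8049. Tolvaptan animals 345, 346, 347 and 348 of AU8049 had 8.90, 9.12, 12.85 and 12.07 of Cyp4a10, against 12.31, 12.28, 12.53 and 12.04 in Control animals 341 to 344. The first pair of Tolvaptan animals lay far below the other six mice, animal 348 lay among the Control values and animal 347 above all of them. The difference was -1.55 ± 0.49 (SE, adjusted p = 0.0391), in a strain where 5.4% of all genes were called and no array was off its strain. Without animal 345 it was -0.93 and without 346 it was -1.003, and neither was called (adjusted p of 0.676 and 0.593). Without any one of the Control animals it was -1.48 to -1.61, and on the strain's own arrays -1.55, but it was not called there either (adjusted p of 0.061 to 0.0891, and of 0.469).

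Animals 345 and 346 were also low in Vnn1, Acot3 and the receptor gene itself. Vnn1 was 5.42 and 5.84 in animals 345 and 346, 10.40 and 9.99 in Tolvaptan animals 347 and 348, and 9.44 to 10.44 in the Control animals. Acot3 was 3.34 and 3.58 in animals 345 and 346, 7.77 and 5.94 in the other Tolvaptan animals, and 6.84 to 7.25 in Control animals. Ppara, which encodes PPAR-alpha and was looked at in this strain after the members' values were seen, was 7.29 and 8.20 in animals 345 and 346, 9.88 and 9.81 in the other Tolvaptan animals, and 9.40 to 9.76 in Control animals. Ehhadh was lower in them too, by less, at 11.69 and 11.39, against 12.41 and 12.10 in the other Tolvaptan animals and 12.07 to 12.58 in Control animals. The pattern was not shared by the whole set. Acot1 was 9.36 and 8.43 in animals 345 and 346, against 8.75 to 10.25 in Control animals, and Fgf21 was 7.70 and 6.46, against 7.53 to 8.38. Albumin did not separate them, with 13.64 and 13.58 in animals 345 and 346 against 13.54 to 13.64 in Control animals. Pdk4, a kinase that curbs glucose oxidation and is itself a known PPAR-alpha target, was high in the same animals. It was 12.06 and 11.62 there, against 3.86 to 7.27 in Control animals. The lipid droplet gene Hilpda was high in them as well, at 10.46 and 9.67 against 4.25 to 4.75 in Control animals. Plin2, another lipid droplet gene, was lower, at 11.49 and 11.09 against 11.97 to 12.11. Crat was 6.88 in animal 345, below the Control range of 7.13 to 7.99, and within that range in animal 346. Acot2 was 4.04 in animal 345, within the Control range of 3.65 to 5.77, and below that range in animal 346.

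The other strain extremes did not pass the test with all arrays. Vnn1 in AU8033 had the highest difference of Vnn1, 1.82 ± 0.71 (SE, adjusted p = 0.426). Its Tolvaptan animals had 9.18, 8.54, 9.57 and 7.95, against 9.08, 9.05, 2.70 and 7.13 in Control animals. The Tolvaptan value of 8.54 and the Control values of 9.08 and 9.05 came from off-strain arrays. Without off-strain arrays the difference was 3.90 ± 0.82 (SE, adjusted p = 0.004), from 3 Tolvaptan and 2 Control animals, in a strain where 3.55% of all genes were then called. Control animal 83, at 2.70, is 1 of those 2, and with every array but that one the difference was 0.32 ± 0.73 (SE, adjusted p = 0.9998). Vnn1 in AU8049 was also called at that setting, at -1.97 ± 0.64 (SE, adjusted p = 0.0361, with 7.31% of all genes called there), against an adjusted p of 0.0812 with all arrays. The lowest difference of Vnn1 was -2.29 ± 0.71 (SE, adjusted p = 0.0885) in AU8024, where 1 Tolvaptan animal had 3.47 and 3 others 7.19 to 9.34, against 8.08 to 10.37 in Control animals. That strain held 1 Tolvaptan and 2 Control off-strain arrays, and without them the difference was -2.19 and not called.

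Acot1 in AU8034 was higher by 1.93 ± 0.63 (SE, adjusted p = 0.237), with 9.20, 10.19, 10.35 and 9.82 in Tolvaptan animals against 6.18, 6.66, 10.00 and 9.02 in Control animals. The low Control pair were both off-strain arrays, and without them the difference was 0.29 ± 0.69 (SE, adjusted p = 0.99998). Fgf21 in IL16211 differed by 2.46 ± 0.91 (SE, adjusted p = 0.671), with 6.02, 6.34, 6.47 and 6.26 in Tolvaptan animals against 2.14, 5.94, 2.28 and 4.90 in Control animals. The strain was picked for the largest Fgf21 difference, and its lowest Tolvaptan value, 6.02, lay just above its highest Control value, 5.94. The values 6.34 in Tolvaptan and 5.94 in Control came from off-strain arrays, without which the difference was 3.14 ± 0.98 (SE, adjusted p = 0.940). Acot3 in the same strain differed by 1.97 ± 0.86 (SE, adjusted p = 0.671), and by 2.52 ± 0.92 without these arrays (SE, adjusted p = 0.947). In OR3252 the difference was -2.21 ± 0.91 for Fgf21 and -1.65 ± 0.63 for Acot1 (SE, adjusted p = 0.817 and 0.787), with Tolvaptan animal 468 lowest in both genes, at 3.33 for Fgf21 and 5.27 for Acot1. Acot3 was -2.20 ± 0.86 in OR3393 (SE, adjusted p = 0.502), where Tolvaptan animals had 8.46, 5.76, 4.47 and 8.45 against 8.78 to 9.14 in Control animals. Ehhadh ran from -0.85 ± 0.41 in OR13067 to 0.85 ± 0.40 in AU8010 (SE, adjusted p = 0.341 and 0.9997), and in OR13067 the highest Control values, 11.88 and 12.09, came from off-strain arrays. Without those arrays the difference in OR13067 was -0.11 ± 0.45 (SE, adjusted p = 0.992), and the lowest difference of Ehhadh was -0.74 in OR3252. Cyp4a10 was highest in AU8043, at 1.12 ± 0.49 (SE, adjusted p = 0.780), with 12.01 to 12.36 in Tolvaptan animals and 9.91 to 12.03 in Control animals. Without off-strain arrays the highest differences were 1.21 for Cyp4a10 in AU8033 and 1.48 for Acot1 in OR3032. Those of Fgf21 and Ehhadh were then 3.45 and 0.93, both in IL16750, and none of these was called. Acot3 and Vnn1 kept their highest strains.

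**Figure D3:**
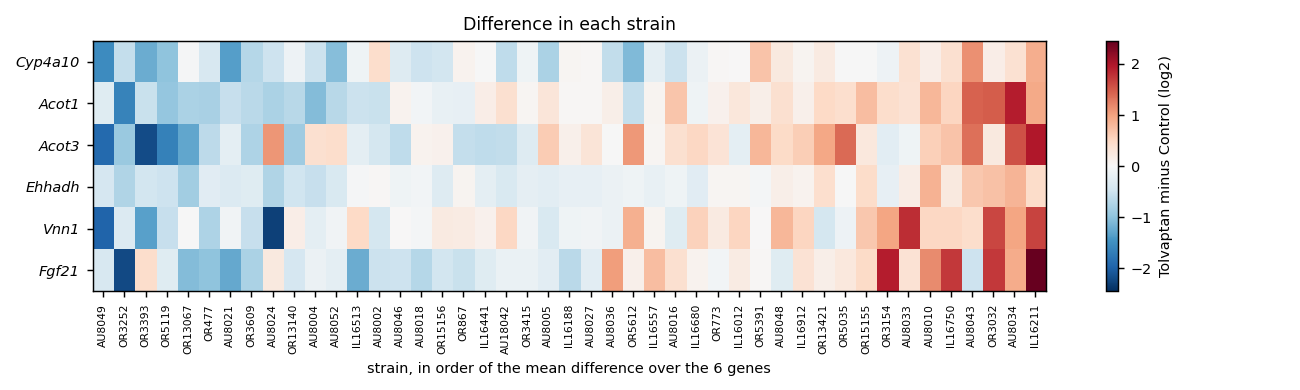
Tolvaptan minus Control in log2 units (colour, red higher and blue lower under tolvaptan) for the 6 genes (rows) in each of 45 strains (columns), ordered by the mean difference over the genes. At the left end AU8049 is low in Cyp4a10, Acot3 and Vnn1 with smaller values in Acot1, Ehhadh and Fgf21, and at the right end IL16211 is above 0 in all 6.

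In fasted Control livers the level of every measured gene differed among strains. The test for differences among the 45 Control strains called 6 of 6 genes, and it called 74.9% of all genes. The F statistics ran from 2.17 for Cyp4a10 to 4.64 for Vnn1 (adjusted p of 0.000211 and 1.79e-14). Strain accounted for 24.2% of the Control variance of Ehhadh, 27.2% for Acot1, 28.0% for Cyp4a10, 30.3% for Fgf21, 43.9% for Acot3 and 46.4% for Vnn1, against a median of 24.8% over all genes. Animals of 1 strain differed widely as well. The SD within strain and treatment was 0.57 for Ehhadh, 0.70 for Cyp4a10, 0.90 for Acot1, 1.01 for Vnn1, 1.23 for Acot3 and 1.30 for Fgf21, against a median of 0.30 over all genes. These shares and SDs include the off-strain arrays and were not computed without them. Without them limma still called 6 of 6 genes for Control strain differences, and 10391 of 14125 genes. The adjusted p was then 0.000116 for Cyp4a10 and 3.18e-20 for Vnn1.

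Cyp4a10 was lowest in AU8052, at 10.35 ± 1.55 (SD, n = 3), followed by OR5612 at 10.93 ± 0.49 and OR5391 at 10.96 ± 2.08 (SD, n = 4 each). It was highest in IL16513 at 12.78 ± 0.18, OR3393 at 12.71 ± 0.11 and OR3415 at 12.69 ± 0.13 (SD, n = 4 each). The range over strains was 5.38-fold. High strains were tight and low strains scattered: strain mean and SD correlated at r = -0.74 over the 45 strains, as a description with animals shared between the 2 measures. In OR5391 the 4 animals had 12.54, 12.38, 8.05 and 10.86, so its low mean came from a pair of animals. The largest gap between neighbours in the order of strain means was 0.58.

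Acot1 was lowest in OR477 at 7.37 ± 1.46 (SD, n = 4), AU8052 at 7.38 ± 0.51 (SD, n = 3) and AU8043 at 7.73 ± 1.16 (SD, n = 4). The highest levels of Acot1 were 10.25 ± 0.51 in OR773, 10.23 ± 0.63 in AU8024 and 10.13 ± 0.59 in IL16513 (SD, n = 4 each). OR477 and AU8024 held off-strain arrays. Without such arrays OR477 was lowest, at 6.71, and IL16188 highest, at 10.80. Acot3 had the widest range, 43.9-fold, with 4.50 ± 1.13 in AU8052 (SD, n = 3), 4.65 ± 0.95 in OR5612 and 4.94 ± 1.09 in OR3609 (SD, n = 4 each) at the low end. At the high end Acot3 was 9.95 ± 0.77 in IL16441, 9.59 ± 0.53 in OR13140 and 9.37 ± 0.53 in IL16012 (SD, n = 4 each). The single animals of the low Acot3 strains ranged from 3.54 to 6.33 and those of the high strains from 8.68 to 10.51. These strains were picked by the same values, so the gap between the ends is a description only. Without off-strain arrays OR477 was lowest in Acot3, at 4.06, and IL16441 highest, at 10.33.

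Ehhadh ranged 3.31-fold over the strains. It was lowest in OR15155 at 10.58 ± 0.38, OR477 at 10.58 ± 0.90 and AU8034 at 10.64 ± 0.75, and highest in AU8049 at 12.31 ± 0.23, OR773 at 12.05 ± 0.18 and OR5612 at 11.98 ± 0.32 (SD, n = 4 each). The 3 low strains each held off-strain arrays. Without them AU8034 was 11.21 from 2 animals, and OR477 became the lowest at 10.14 ± 0.20 (SD, n = 3).

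Vnn1 was lowest in OR3154 at 6.83 ± 2.06, IL16912 at 6.89 ± 1.74 and IL16211 at 6.89 ± 1.78 (SD, n = 4 each). It was highest in OR3252 at 10.86 ± 0.20, AU8027 at 10.70 ± 0.38 and OR5035 at 10.63 ± 0.53 (SD, n = 4 each), a range of 16.4-fold. Without off-strain arrays the range of Vnn1 was 63.9-fold, with AU8033 lowest at 4.91 from 2 animals and IL16188 highest at 10.91. Fgf21 was lowest in IL16211 at 3.81 ± 1.90 and OR3154 at 3.89 ± 1.07 (SD, n = 4 each) and AU8052 at 4.53 ± 1.003 (SD, n = 3). Its highest levels were 8.47 ± 0.77 in AU8002, 8.37 ± 2.40 in IL16188 and 8.10 ± 1.61 in IL16680 (SD, n = 4 each). The AU8002 values of 9.41 and 8.55 and the IL16188 value of 4.84 came from off-strain arrays. Without such arrays IL16188 was highest in Fgf21, at 9.55, and IL16211 lowest, at 3.11. The Fgf21 range was 25.2-fold with all arrays and 86.7-fold without off-strain arrays, and the Control range of Acot3 became 77.2-fold and that of Acot1 17.0-fold, against 43.9-fold and 7.34-fold with all arrays. Setting such arrays aside widened the range of Ehhadh to 4.49-fold, while that of Cyp4a10 stayed at 5.38-fold.

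Neighbouring strains lay close together in every gene. Of the 44 pairs of neighbours in the order of Control means, 1 pair of Ehhadh and none of the other genes differed by more than the larger SD of their animals. Gaps between so many ordered means are small beside the SD of single animals, so this count cannot tell whether the order holds.

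With all arrays, some strains were low or high in several genes. AU8052 ranked 1 of 45 from the bottom in Cyp4a10 and Acot3, 2 in Acot1 and 3 in Fgf21, but 10 in Ehhadh and 13 in Vnn1. OR5612 ranked 2 from the bottom in Cyp4a10 and Acot3, 4 in Acot1 and 5 in Vnn1, yet 43 in Ehhadh, near the top. Its Ehhadh values were 12.23, 11.53, 12.19 and 11.97, with Cyp4a10 at 10.48, 10.55, 11.47 and 11.21 in the same 4 animals. IL16211 and OR3154 were the lowest strains of Fgf21 and among the 3 lowest of Vnn1. OR773 ranked 45 in Acot1 and 44 in Ehhadh, but 22 in Fgf21.

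**Figure D4:**
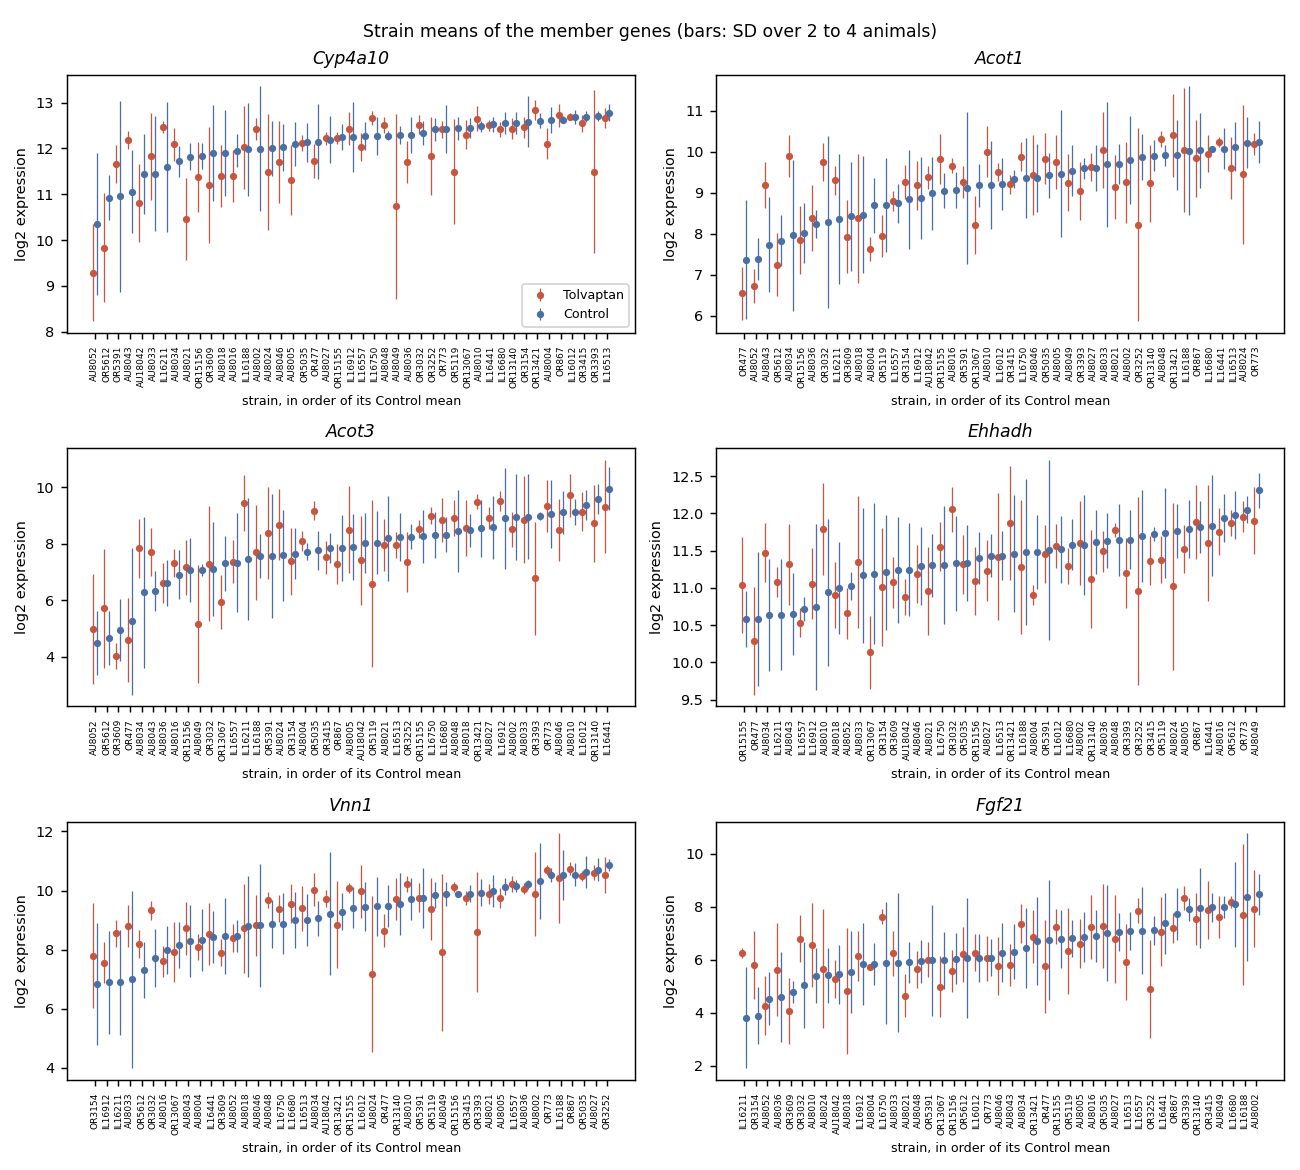
Strain means of each gene in log2 units (vertical axis) in Tolvaptan (red, left of each pair) and Control (blue, right) livers, with strains ordered by the Control mean and bars for the SD over 2 to 4 animals. The low strains of Cyp4a10 and Vnn1 have long bars, the high ones short bars, and Tolvaptan means follow the Control order loosely.

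The strain order carried over to the other treatment. Over the 45 strains, Tolvaptan and Control means of the same gene correlated at r = 0.78 (rho = 0.72) for Acot3, 0.73 (0.77) for Vnn1, 0.68 for each of Fgf21, Acot1 and Cyp4a10, and 0.62 (0.61) for Ehhadh. The median over all genes was 0.58. These are descriptions over strain means from different animals that share scans. Without the 2 strains farthest from the median, AU8052 and OR5612, the value for Cyp4a10 was 0.49, so its relation rested in part on those strains. Between the 1 Control animal per strain in scan 1 and the Control means of the later scans, a comparison chosen after the data were seen, r ran from 0.22 for Cyp4a10 to 0.63 for Vnn1.

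Within strains the genes moved together from animal to animal. After subtracting the fitted mean of strain and treatment and the scan, all 15 pairs of the 6 genes correlated positively, with r from 0.23 to 0.78 (median 0.50) over 175 Tolvaptan animals and from 0.35 to 0.82 (median 0.55) over 179 Control animals. The highest pair was Acot1 with Ehhadh, 0.78 in Tolvaptan and 0.82 in Control. Acot1 with Fgf21 was 0.64 in Tolvaptan and 0.73 in Control, the next highest there. Acot3 with Fgf21 was the lowest in Tolvaptan, 0.23, and Acot3 with Vnn1 the lowest in Control, 0.35. Both values of a pair are read from the same array. Across the 45 Control strain means the pairs were less alike, with r from 0.17 to 0.73 (median 0.38). The highest there was Acot1 with Acot3, the neighbours on chromosome 12, and the lowest were Acot3 with Ehhadh and Acot3 with Vnn1. Within strains Acot1 with Ehhadh was the highest pair and across strains Acot1 with Acot3, a difference that was not tested. Without off-strain arrays the range was 0.24 to 0.70 over strains and 0.29 to 0.83 within strains.

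**Figure D5:**
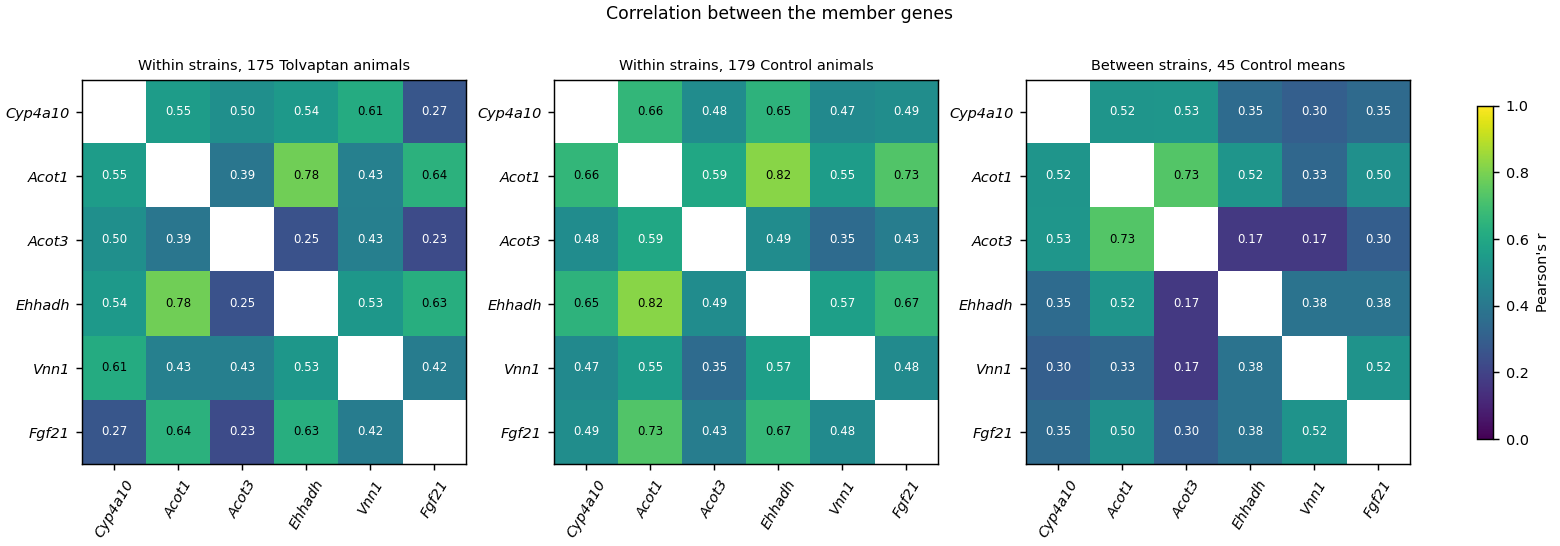
Pearson's r between the 6 genes (rows and columns) within strains over 175 Tolvaptan animals (left), within strains over 179 Control animals (middle) and over 45 Control strain means (right), with brighter colours for higher r. Acot1 with Ehhadh is the brightest pair in the first pair of panels and Acot1 with Acot3 in the right one.

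The likeness of other genes was measured as Pearson's r between their Control strain means and the mean of the 6 genes, each scaled to SD units. Over the 45 strains Slc22a5, the carnitine transporter, had r = 0.74, Crat, carnitine acetyltransferase, 0.70, Aldh3a2, a fatty aldehyde dehydrogenase, 0.69, and Acot2, a mitochondrial thioesterase near Acot1 on chromosome 12, 0.67. Plin2, a lipid droplet coat protein, had 0.62. The other genes of the highest 10 were Tbx3, Axin2, Wrnip1, Ube2e2 and Chkb, with 0.59 to 0.66. Within strains Tbx3 and Axin2 were less like the 6 genes, with 0.23 and 0.15 in Control animals, while Crat had 0.80, Acot2 0.72 and Aldh3a2 0.69. The lowest genes over strains were Slc46a3 at -0.64, Spata24 at -0.59 and Il18 at -0.56.

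Other genes of the same pathways were also not called. Of 121 further genes on 10 lists around PPAR-alpha and the pathways of the 6 genes, 100 were tested, and limma called 0 higher and 0 lower under tolvaptan, with 3 higher and 6 lower at an unadjusted p under 0.05 and a median difference of -0.0016. Called for strain differences in Control livers were 91 of the 100, or 91%, against 74.9% of all genes. A high share was not particular to these lists. Of the cell type markers that passed the filter, 7 of 8 hepatocyte and 6 of 6 Kupffer cell markers were called too. So were 3 of 3 kidney tubule, 3 of 3 small intestine and 1 of 2 adipocyte markers. Ppara itself differed by -0.01 ± 0.04 (SE, adjusted p = 0.97), with 24 of 45 strains higher.

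Among the omega-hydroxylases, Cyp4v3 differed by -0.09 ± 0.03 (SE, adjusted p = 0.292) and Cyp4f14 by -0.12 ± 0.09 (SE, adjusted p = 0.760), and Cyp4f14 had a Control strain F of 11.4. Neither followed the 6 genes within strains, with r of 0.05 for Cyp4v3 and -0.02 for Cyp4f14 in Control animals, against 0.79 for Cyp4a10, which is itself in the mean. In peroxisomal beta-oxidation, 0 of 17 genes tested, Ehhadh included, were called and 2 had an unadjusted p under 0.05, Acaa1b, a thiolase, at -0.07 ± 0.03 (SE, adjusted p = 0.471) and Acox3 at -0.07 ± 0.04 (SE, adjusted p = 0.489). Within strains Acaa1b had r = 0.61 and Acox3 -0.08 with the 6 genes in Control animals.

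In mitochondrial beta-oxidation 0 of 15 genes were called under tolvaptan, with 0 at an unadjusted p under 0.05. Called for differences among Control strains were 15 of 15, where 74.9% of all genes were called. All 15 correlated positively with the 6 genes within Control strains, with a median r of 0.48, against -0.01 over all genes. Slc25a20, the carnitine-acylcarnitine carrier, had 0.64, Cpt2, the carnitine palmitoyltransferase of the inner membrane, 0.58, and Acadl, the long-chain acyl-CoA dehydrogenase, 0.55. The thioesterases were more divided: of 11 tested, Acot1 and Acot3 among them, 6 had a positive r within strains, with a median of 0.11. Acot1 and Acot3 are themselves in the mean, with r of 0.91 and 0.70, so their sign says nothing about the list. Of those outside it, Acot2, Acot8, Acot12 and Acot10 were positive, at 0.72, 0.40, 0.40 and 0.11. The others were negative, at -0.01 to -0.20. Under tolvaptan Acot7 was -0.09 ± 0.03, Acot10 0.10 ± 0.04 and Acot11 -0.11 ± 0.05 (SE, adjusted p = 0.201, 0.281 and 0.495 in limma).

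Genes of signalling and of the fasting state likewise missed the threshold. Of the Fgf21 receptor genes, Fgfr4 was -0.10 ± 0.03 (SE, adjusted p = 0.145), the lowest adjusted p on the lists, and the coreceptor gene Klb was -0.03 ± 0.04 (SE, adjusted p = 0.837). Among coenzyme A genes, 8 of 8, Vnn1 included, differed among Control strains, where 74.9% of all genes did. Vnn3, the other pantetheinase gene, had a Control strain F of 9.11 and differed by -0.06 ± 0.07 under tolvaptan (SE, adjusted p = 0.850). In the fasting list Igfbp1, a secreted binding protein of insulin-like growth factors, was 0.15 ± 0.10 (SE, adjusted p = 0.693) and the glucose-6-phosphatase gene G6pc -0.09 ± 0.05 (SE, adjusted p = 0.588). Of the lipid droplet genes, Hilpda was 0.12 ± 0.06 (SE, adjusted p = 0.475) and Plin4 -0.11 ± 0.08 (SE, adjusted p = 0.741).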

How the data were processed

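The deposited table holds log2 values per probe set, made by the authors with RMA in Affymetrix Expression Console, per the submitters' processing notes, which give no version. Arrays are one-colour HT_MG-430 PM arrays, each of 1 animal. No genome build applies to these values. RMA levels of different probe sets are not comparable with each other. The number of arrays limits the precision.

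For every gene, the probe set of highest mean among those with 1 symbol was used, kept if above the array median in at least 4 arrays. Limma 3.58.1 in R 4.3.3 fitted strain-by-treatment means and a scan term over all 354 arrays. P-values were adjusted by Benjamini-Hochberg over 14125 genes, with a threshold of 0.05. The contrasts were the averaged difference, the difference in each strain, their interaction and the Control strain differences. Named were the members, their extreme strains, up to 4 genes per list by adjusted p in the averaged and in the Control strain comparison, and the 10 highest and 3 lowest genes by likeness. Exceptions named after their values were seen are Cpt2, Acot8, Ppara, Pdk4, Alb and the genes ranked within strains. The members and lists were chosen with earlier results of these data known. The fit was tested on simulated data. Alternatives changed the probe set rule, filter, centring, scan term, arrays, scans and unit. Probe sets with several symbols were left out. Animals are separate mice, and the dose label was not used.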

Additional observations from a re-analysis of the deposited data

Results flagged for a closer look

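Of 64 groups of 4 animals whose values were described, 1 held an animal far from the others. Control animal 194 of IL16912 had a Vnn1 level of 4.29, while the other 3 Control animals of this strain had 7.66 to 7.94. Its distance to the nearest of them was 0.923 of the group's whole range. Chance alone would mark about 1 in 20 such groups.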

How the results depend on the processing

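None of the 6 genes was called for the averaged difference under any alternative run. Strain dependence (0 of 6 called) and Control strain differences (6 of 6) kept their counts under the alternatives run for them. Single scans, the fit without scan 5 and strains as the unit were not run for these. The sign of the uncalled averaged differences did change, and the cause was not tested. Acot1 was -0.0028 without off-strain arrays, -0.016 in the 26 strains with none, -0.038 without scan 5 (chosen after the data were seen), and -0.12, -0.041 and -0.55 in scans 1, 3 and 5 alone. Acot3 was -0.050 without scan 1, -0.32 in scan 2 and -1.02 in scan 5. Fgf21 was -0.011 without scan 5, -0.27 in scan 1 and -0.59 in scan 5. Ehhadh was 0.031 in scan 2 and 0.056 in scan 4, Cyp4a10 was 0.036 in scan 4 and Vnn1 was -0.71 in scan 5.

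Leaving out single animals moved Cyp4a10 in AU8049 between -2.25 and -0.93. Vnn1 in AU8024 was called without Control animal 63 (-2.81) or Tolvaptan animals 65 (-2.74) or 66 (-2.95), and Acot1 in AU8034 without Control animal 43 (2.58). No other of the 12 extreme single-strain differences changed its side of the threshold that way.

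Over all genes, averaged calls numbered 70, against 44 without off-strain arrays, 300 in the 26 strains, 158 without scan 1, 34 without scan 5, 18 with strains as the unit, 32 in scan 3 and 0 in each of scans 1, 2, 4 and 5. Interaction calls numbered 3, against 26 without off-strain arrays and 11 without scan 1. No analysis paired by animal number was possible because animal numbers, which are unique to each mouse, are not shared between the groups. The groups are paired by strain only, which the fits hold as strain means and as the 45 strain differences.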

Other observations

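The 10 genes most like the 6 from animal to animal within Control strains, a ranking chosen after the data were seen, had r between 0.36 for Ppp2r2d and 0.78 for Aldh3a2 in Tolvaptan animals. In Control animals the highest were Crat (r = 0.80), Acot2 (0.72), Aldh3a2 (0.69), Slc22a5 (0.68) and Plin2 (0.67). Below them came Ppp2r2d, a phosphatase subunit, and Abcb4, the phospholipid flippase of bile, with 0.65 and 0.64, Slc25a20 with 0.64, and Cpt1b and Pex11a, a peroxisome division protein, with 0.63 each. The lowest genes of the same ranking were Slc22a7, an organic anion transporter, with -0.43 in Tolvaptan and -0.63 in Control animals, Ppib, a prolyl isomerase of the endoplasmic reticulum, with -0.32 in Tolvaptan and -0.60 in Control animals, and Krtcap2, with -0.25 in Tolvaptan and -0.58 in Control animals.

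In AU8049, Tolvaptan animals 345 and 346 had Aldh3a2 levels of 8.05 and 7.89, against 10.58 and 9.94 in Tolvaptan animals 347 and 348 and 10.13 to 10.54 in Control animals. Slc22a5, which is like the 6 genes over the series, was not low in them, at 7.10 and 7.12, against 5.24 to 6.54 in Control animals. Fabp2, an intestinal marker gene that the liver also expresses, had r = 0.50 with the 6 genes within Control strains and differed by -0.02 ± 0.07 under tolvaptan (SE, adjusted p = 0.958).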
